A study of Mus musculus with 4 samples.

Results

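Potassium channel genes of the mouse Kcn nomenclature were examined in embryonic stem cell (ESC) lines with and without Dppa2. The members are all genes whose symbol begins with Kcn and whose transcript accession is carried by a probe of the array, apart from 2 symbols that were not analysed here. This gave 82 genes on 111 of the 41174 gene probes, and 14 further Kcn symbols of the RefSeq table had no matched probe. The family was taken up because one of its genes, Kcne1l (listed elsewhere as Kcne5), was much lower in the lines lacking Dppa2. The difference of Kcne1l is therefore given as a description, with no test, and the shares of the family below come from the same comparison and support nothing by themselves.

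The study compared 2 wild-type lines (WT; ECAT15-1 +/+, ECAT15-2 +/+) with 2 lines (KO) that carried ECAT15-2 -/- and a conditional targeted (CT) allele of ECAT15-1 on both copies; ECAT15-2 is Dppa2 and ECAT15-1 is Dppa4. The labels give the replicate 1 lines to mother 1046 and the replicate 2 lines to mother 875, so each mother gave a WT and a KO line. Each line came from a separate blastocyst and was hybridised to 1 array, on a mixed background of 129Sv, C57/BL6 and, from the Cre or FLPe transgenic mice, an unknown strain. The lines were kept for 3 days on gelatin in medium with LIF and 15% fetal calf serum, and Cy3-labelled total RNA was hybridised to an Agilent whole-genome array, which reads each transcript as the brightness of a short probe.

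Potassium channels let potassium ions leave or enter cells along their gradient and so set the resting membrane voltage and shape action potentials. Pore-forming subunits fall into voltage-gated, calcium- or sodium-activated, inward-rectifier and two-pore domain classes, and smaller accessory subunits change how the pore proteins open or reach the membrane. Most are best known from neurons, heart and epithelia.

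On each array 68.5% to 70.4% of the probes with a value were well above background. Of the 82 Kcn genes, 49 and 48 had such a probe in the WT lines and 44 and 41 in the KO lines. The Dppa2 probe read 12.10 and 12.04 log2 signal in the WT and 7.05 and 7.11 in the KO lines, a fall that passed the test (limma adjusted p = 0.00863, n = 2 per group). Dppa4, whose allele is conditional in the KO lines, read 13.38 and 13.55 against 13.95 and 14.05 (limma adjusted p = 0.158, n = 2 per group). All 8 ESC markers with a probe, among them Pou5f1, Sox2 and Zfp42, were well above background on all 4 arrays. Their summed signal, mostly that of Dppa5a (18.63 and 18.55 against 18.84 and 18.90), was 18.87 and 18.84 (log2) in the WT and 19.20 and 19.41 in the KO lines. Of the 8 markers 0 passed the limma test, while 4 were higher and 0 lower at an unadjusted p under 0.05, beside 10.4% and 12.7% of all genes. The summed signal of 10 trophoblast markers was 18.10 and 18.50 (log2) in the WT and 16.15 and 15.58 in the KO lines. Such sums follow the brightest markers, here Krt8 (17.04 and 17.46 against 14.77 and 14.20) and Krt18 (17.13 and 17.51 against 15.42 and 14.86). Of the 9 tested, 7 were at least 2-fold lower in both mothers' pairs, beside 7.07% of all genes. Ascl2 and Gcm1 differed little (log2 differences 0.19 and -0.10). Hand1 passed the test (limma adjusted p = 0.0499), and Tpbpa was not tested because it was too dim. The corresponding sums were 13.36 and 12.43 against 11.67 and 11.58 for cardiomyocyte, 14.72 and 14.94 against 14.79 and 14.09 for neuron, 15.20 and 13.32 against 14.24 and 14.73 for fibroblast, and 11.04 and 11.22 against 11.73 and 11.40 for primitive endoderm markers. The cardiomyocyte sum follows Myh7 (12.17 and 11.07 against 9.37 and 7.49) and Actc1 (11.72 and 9.98 against 9.09 and 8.45). The 10 cardiomyocyte markers tested had a median log2 difference of 0.02, so the list did not fall as a whole. At least 2-fold lower in both pairs were 3 (Myh6, Myh7 and Actc1), and 1 (Myl2) was higher. Among them Myh6 alone passed the test, as a fall (log2 difference -2.52, limma adjusted p = 0.0199). Of the primitive endoderm markers Dab2 fell (-1.77, limma adjusted p = 0.0366) and Lama1 rose (1.66, limma adjusted p = 0.0404), and 0 of the tested fibroblast and neuron markers passed, either adjusted or at an unadjusted p under 0.05. The part of these cell types in the Kcn differences was not tested, and fewer cells of a type and less RNA per cell cannot be told apart in bulk RNA.

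Values are log2 signals after scaling each array to its 75th percentile, and a gene was tested where a probe exceeded background clearly on both WT or both KO arrays. This held for 47 of the 82 genes. Of the other 35, 28 were well above background on no array. They included Kcnma1, the pore gene of the large-conductance calcium-activated channel. The remaining 7 were above background on 1 or 2 arrays. Tested genes were 18 of 35 voltage-gated pore genes, 9 of 16 accessory genes (1 of the 16, Kcnmb4os1, is a noncoding transcript and was not tested), 5 of 8 calcium- or sodium-activated, 7 of 14 inward-rectifier and 8 of 9 two-pore domain genes.

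**Figure D1:**
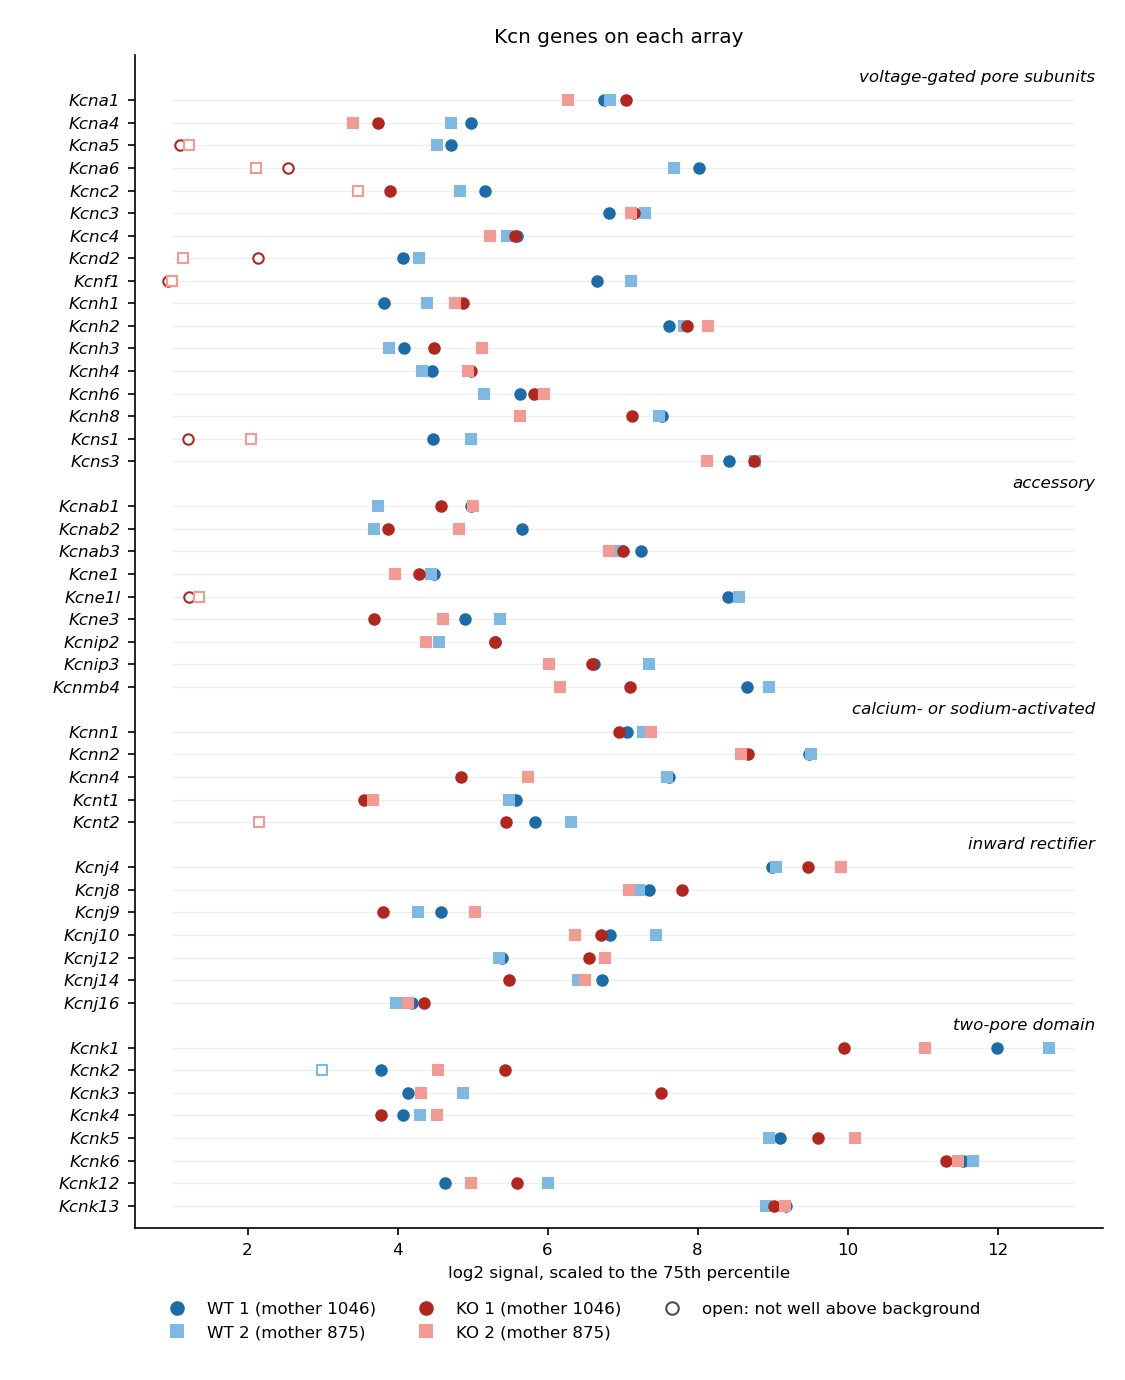
Log2 signal of 46 of the 47 tested Kcn genes on each of the 4 arrays, grouped by channel class; blue marks are WT lines, red marks KO lines, circles mother 1046, squares mother 875, and open marks are not well above background. Both KO marks are open for 6 genes, Kcna5, Kcna6, Kcnd2, Kcnf1, Kcns1 and Kcne1l; levels of different genes rest on different probes and are not comparable with each other.

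Apart from Kcne1l, 4 of 46 tested genes (8.70%) were lower and 0 higher at a limma adjusted p under 0.05, namely Kcna5, Kcna6, Kcnf1 and Kcnt1, beside 1.68% lower and 0.176% higher among all 21639 genes and transcripts tested. Of these 4, Kcna5, Kcna6 and Kcnf1 entered the test through the WT lines alone, where they are bright. Among genes well above background on all 4 arrays the call was Kcnt1, 1 of 38 Kcn genes (2.63%), beside 0.896% of all such genes. Unadjusted p-values under 0.05 were found for 12 of the 46 genes on the lower side (26.1%) and 7 on the higher side (15.2%), beside 12.7% and 10.4% of all genes. In a limma fit that blocked on the mother, 0 Kcn genes were called, as it called 0 of all genes, and the 4 tested falls had adjusted p from 0.0844 to 0.0939; at an unadjusted p under 0.05 this fit had 13 of the 46 genes on the lower and 5 on the higher side (28.3% and 10.9%), beside 12.8% and 9.86% of all genes. No Kcn gene was called either when WT replicate 1, when WT replicate 2 or when KO replicate 2 was dropped, whereas 10 lower (Kcne1l counted) and 1 higher were called when KO replicate 1 was; the lone KO line is then assumed to vary like the WT lines. The median log2 difference was -0.15 over the 47 genes and 0.08 over all genes. Under median centring the family and all-gene medians were 0.034 and 0.26, and under normexp with quantiles 0.00337 and 0.061. Median centring shifts the differences of all genes alike, so the gap between the family and all genes is unchanged there. At background level in both KO lines and above it in both WT lines were 6 of 47 Kcn genes, beside 1.99% of all genes. These were Kcna5, Kcna6, Kcnd2, Kcne1l, Kcnf1 and Kcns1, or 5 of 46 without Kcne1l. The reverse held for 0 of 47 Kcn genes, beside 1.3% of all genes, and a set this small cannot show a difference from that share. A median over genes that passed a filter on brightness in either genotype is a description only.

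Differences of 2-fold or more in both mothers' pairs were found for 12 genes that were lower and 2 that were higher in the KO lines, which is 25.5% and 4.26% of the tested Kcn genes, beside 7.07% and 1.51% of all genes. These counts include Kcne1l. The 12 lower genes were Kcne1l, Kcna4, Kcna5, Kcna6, Kcnc2, Kcnd2, Kcnf1, Kcnk1, Kcnmb4, Kcnn4, Kcns1 and Kcnt1, and the 2 higher genes were Kcnj12 and Kcnk2. Among genes well above background on all 4 arrays, which the filter cannot have kept through 1 genotype alone, 5 of 38 Kcn genes (13.2%) and 4.77% of all such genes were lower by this measure. Background correction by normexp with an offset, which compresses dim values, left 6 lower and 0 higher genes (4 and 0 with quantiles). With the 75th percentile it gave log2 differences of -2.39 for Kcne1l, -1.98 for Kcna6 and -1.71 for Kcnf1.

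**Figure D2:**
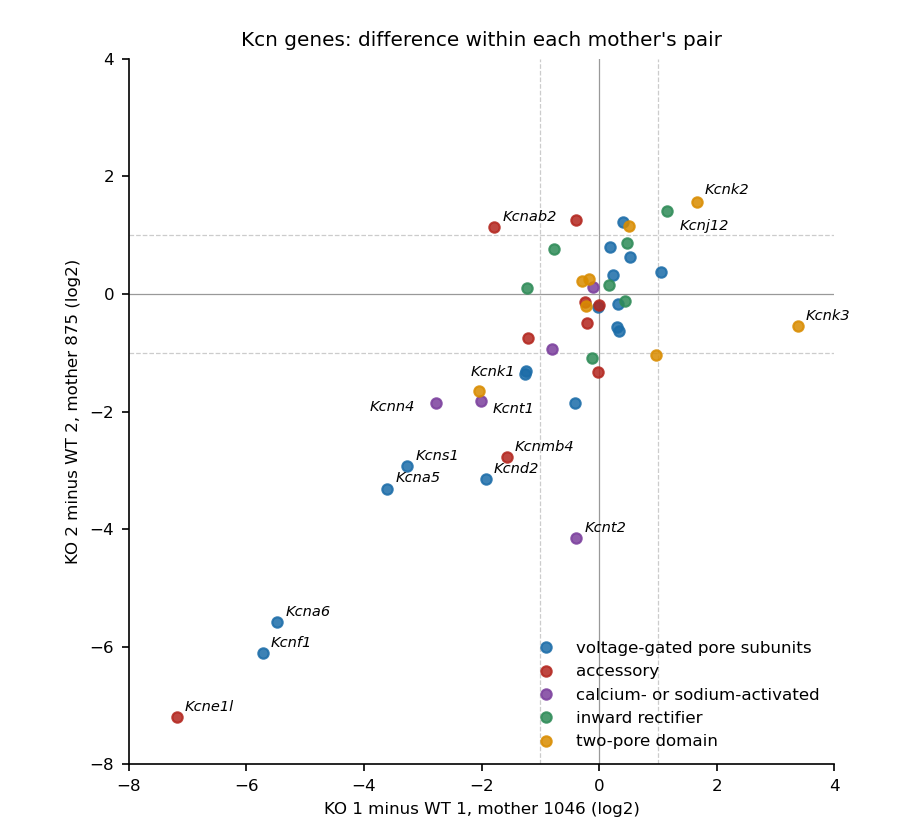
Log2 difference KO minus WT of 46 of the 47 tested Kcn genes within the pair from mother 1046 (horizontal) and the pair from mother 875 (vertical), coloured by channel class; dashed lines mark 2-fold. Kcne1l, Kcnf1 and Kcna6 lie at the lower left with both KO values at background, so their positions there are not measured sizes, whereas Kcnt2 and Kcnk3 differ in 1 pair and Kcnab2 differs in opposite directions.

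The lower genes are shown first by the DNA ahead of their start sites, since these are the members that differed most and a RefSeq promoter window (GRCm38.p6) was at hand for 60 of the 82 genes, though none for Kcnt1. The 250 bases before the annotated start are printed 5′ to 3′ on the gene's strand, with every CpG, the dinucleotide that DNA methylation acts on, in capitals. Kcne1l (chrX:142306199-142306448, minus strand) is the gene that drew attention to the family, Kcna6 (chr6:126740675-126740924, minus strand), Kcna5 (chr6:126535556-126535805, minus strand) and Kcnf1 (chr12:17176889-17177138, minus strand) are the called genes with a window, and Kcnmb4 (chr10:116473524-116473773, minus strand) shows the most CpG-rich window among the 2-fold lower genes.
Kcne1l: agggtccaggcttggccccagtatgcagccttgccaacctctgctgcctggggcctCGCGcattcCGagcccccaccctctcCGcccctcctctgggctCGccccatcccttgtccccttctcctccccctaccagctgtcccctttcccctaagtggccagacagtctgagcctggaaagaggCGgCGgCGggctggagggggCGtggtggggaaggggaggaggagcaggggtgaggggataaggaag
Kcna6: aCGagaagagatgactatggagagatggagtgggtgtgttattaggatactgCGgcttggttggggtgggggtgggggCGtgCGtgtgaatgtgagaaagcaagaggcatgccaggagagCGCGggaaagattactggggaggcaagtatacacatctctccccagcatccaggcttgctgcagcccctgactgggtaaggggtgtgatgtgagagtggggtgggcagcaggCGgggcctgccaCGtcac
Kcna5: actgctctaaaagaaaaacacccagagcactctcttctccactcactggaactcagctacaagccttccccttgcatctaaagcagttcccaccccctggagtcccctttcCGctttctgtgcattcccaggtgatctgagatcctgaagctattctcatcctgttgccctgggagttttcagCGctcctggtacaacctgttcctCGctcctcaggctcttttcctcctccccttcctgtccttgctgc
Kcnf1: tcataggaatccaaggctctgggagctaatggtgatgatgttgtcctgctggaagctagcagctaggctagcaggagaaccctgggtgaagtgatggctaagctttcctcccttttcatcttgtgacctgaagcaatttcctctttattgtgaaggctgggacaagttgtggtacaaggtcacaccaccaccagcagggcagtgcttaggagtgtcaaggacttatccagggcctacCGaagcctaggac
Kcnmb4: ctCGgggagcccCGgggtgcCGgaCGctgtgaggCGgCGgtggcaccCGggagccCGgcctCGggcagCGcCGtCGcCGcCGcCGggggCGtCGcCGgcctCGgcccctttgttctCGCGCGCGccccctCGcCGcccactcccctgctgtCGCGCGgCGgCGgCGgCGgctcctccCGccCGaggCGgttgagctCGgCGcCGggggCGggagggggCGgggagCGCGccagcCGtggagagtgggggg

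The printed stretch holds 9 CpGs for Kcne1l, 8 for Kcna6, 3 for Kcna5, 1 for Kcnf1 and 43 for Kcnmb4. Over the 300-base window, which adds the first 50 transcribed bases, the observed over expected CpG ratio was 0.33 for Kcne1l, 0.38 for Kcna6, 0.20 for Kcna5, 0.15 for Kcnf1 and 1.04 for Kcnmb4. The 11 genes with a window that were at least 2-fold lower in both pairs had a median of 10 CpGs (range 3 to 48), the 23 other tested genes a median of 19 (5 to 41), the 24 untested genes 16.5 (1 to 49), and all 27025 genes with a window 8 (0 to 67). The most CpG-rich window was taken for the 15 Kcn genes with several. These ranges overlap over most of their length, so the lower genes have no single promoter composition in these windows. The motif GGGCGG, searched on both strands, was in 6 of the 11 windows of lower genes (54.5%), in 18 of the 23 other tested (78.3%) and in 37.3% of all windows. TATAAA, searched likewise and sharing no bases with it, was in 0 of the 11, in 1 of the 23 and in 13.7% of all windows.

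**Figure D3:**
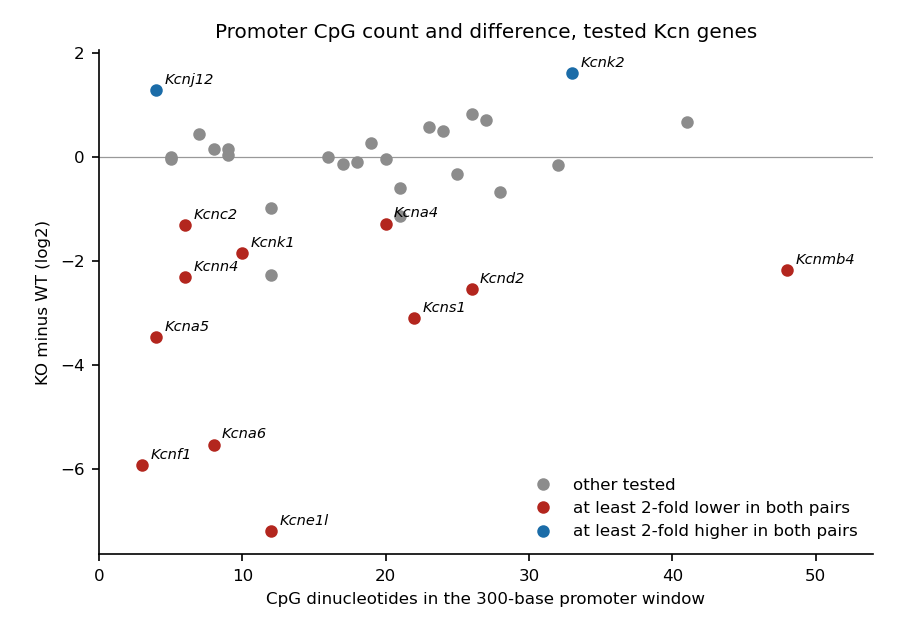
Number of CpG dinucleotides in the 300-base promoter window (horizontal) and log2 difference KO minus WT (vertical) for tested Kcn genes with a window; red genes were at least 2-fold lower and blue genes at least 2-fold higher in both pairs, grey genes were neither. Kcnf1, Kcna5, Kcna6 and Kcne1l sit at 3 to 12 CpGs and Kcnmb4 at 48, with grey genes across the same span.

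The accessory genes begin with the Kcne family, single-pass membrane proteins that attach to voltage-gated pore subunits. Kcne1l read 8.41 and 8.55 log2 signal in the WT and 1.22 and 1.35 in the KO lines. The groups lay far apart, and neither KO array was well above background, so the difference is at least 36.9-fold. Kcne1, the founding member of the family, read 4.49 and 4.45 in the WT and 4.28 and 3.97 in the KO lines, with a log2 difference of -0.35 (SE 0.17) short of the threshold (limma adjusted p = 0.303, n = 2 per group). Kcne3, a subunit best known from epithelia, read 4.90 and 5.36 against 3.69 and 4.61, a log2 difference of -0.98 (SE 0.39; limma adjusted p = 0.249, n = 2 per group), and its second probe gave 4.72 and 5.04 against 3.45 and 4.65. The groups did not overlap for either gene. However, 2 against 2 lines often separate by chance, and the share of all genes that do so was not counted, here or for the genes below. Kcne2 did not rise well above background anywhere. Kcne4 was well above background in KO replicate 1 alone, at 5.66, and read 1.28, 2.12 and 1.00 in WT 1, WT 2 and KO 2, so it was not tested.

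Kcnmb4, an accessory subunit of the large-conductance calcium-activated channel, read 8.66 and 8.95 in the WT and 7.09 and 6.17 in the KO lines. Both KO lines were lower than both WT lines by more than the spread within either genotype, but the log2 difference of -2.17 (SE 0.37) missed the threshold (limma adjusted p = 0.0967, n = 2 per group). The other accessory genes differed less. Kcnip3, a calcium-binding partner of voltage-gated channels that also acts as a DNA-binding repressor, had 6.61 and 7.35 against 6.59 and 6.02, with almost the whole difference in the pair of mother 875 (-1.33, against -0.02 for mother 1046). Kcnab1, a cytoplasmic beta subunit, had 4.98 and 3.74 against 4.59 and 5.01, and its difference of 0.43 turned to -0.19 without WT replicate 2.

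Among voltage-gated pore genes, 3 of the 18 tested fell (16.7%, beside 1.68% of all genes) and 0 rose, with 15 not passing. Of all 18, 7 were lower, the 3 called genes included, and 3 higher at an unadjusted p under 0.05. Over all genes these shares were 12.7% and 10.4%. Kcna6, a delayed-rectifier subunit of the Shaker group, fell from 8.01 and 7.69 in the WT to 2.54 and 2.11 in the KO lines, where it was not well above background, at least 23.8-fold (limma adjusted p = 0.0179, n = 2 per group). Kcna5, the Shaker subunit that carries the ultrarapid current of the atrium, fell from 4.71 and 4.53 to 1.10 and 1.22, at least 2.54-fold (limma adjusted p = 0.0170, n = 2 per group). Its bound is small because its WT signal lay close to the lowest signal called above background, which was 3.24 to 3.59 over the arrays, and under normexp the call was lost (limma adjusted p = 0.204, and 0.116 with quantiles). Kcnf1, which forms no channel alone and modifies other voltage-gated pore proteins, fell from 6.66 and 7.11 to 0.94 and 1.00, at least 12.2-fold (limma adjusted p = 0.0154, n = 2 per group). For these 3 genes, which entered the test through the WT lines alone, both KO values are background signal. Their small KO spread enters the p-values and is not that of a measured level.

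Kcns1, another silent subunit of this kind, had the same pattern at a lower brightness without passing. It read 4.47 and 4.98 in the WT and 1.21 and 2.05 in the KO lines, at least 2.73-fold apart (limma adjusted p = 0.0642, n = 2 per group). Kcns1 too entered the test through the WT lines alone, and both its KO values are background signal, so the p-value compares a level with background. Kcns3 of the same group read 8.42 and 8.76 against 8.75 and 8.13, with overlapping groups and a difference of -0.15 whose sign turned under median centring (0.034).

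Kcnd2, a pore gene of transient currents, read 4.07 and 4.29 in the WT and 2.14 and 1.14 in the KO lines, which is at least 1.87-fold (limma adjusted p = 0.0861, n = 2 per group). It entered the test through the WT lines alone, and both KO values are background signal, so this p-value also compares a level with background. Kcna4, a Shaker gene of fast-inactivating currents, stayed well above background on all 4 arrays, at 4.99 and 4.71 against 3.74 and 3.40, a log2 difference of -1.28 (SE 0.20; limma adjusted p = 0.0862, n = 2 per group). Kcnc2, a subunit of fast-spiking neurons, read 5.16 and 4.83 against 3.91 and 3.47, the last not well above background (limma adjusted p = 0.1004, n = 2 per group), and a second probe read 4.72 and 4.52 against 3.88 and 3.16. In each of these 3 genes both KO lines lay below both WT lines, which 2 lines per genotype often do by chance, and none passed the test. Kcnh8, of the ether-a-go-go group, read 7.53 and 7.49 against 7.12 and 5.63, a difference carried mostly by KO replicate 2. The other 5 tested Kcnh genes had log2 differences of 0.28 to 0.82, and none of them passed.

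Kcna6, Kcna5 and Kcna1 lie beside each other on chromosome 6 in the RefSeq table, with no other gene that has a probe between them. Kcna1, which sits between the other two and was looked at after its values were seen, read 6.75 and 6.83 in the WT and 7.04 and 6.27 in the KO lines. Its groups overlapped (log2 difference -0.13, SE 0.31; limma adjusted p = 0.815, n = 2 per group), in contrast to the falls of its neighbours on either side; the difference between the genes was not tested.

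The neighbours of Kcne1l on the X chromosome were followed in the same way, taking the 3 nearest genes with a probe on each side. Nxt2, an RNA export factor gene, read 8.13 and 7.83 in the WT and 8.72 and 8.19 in the KO lines, and Acsl4, a fatty acid-activating enzyme gene on the other side, read 13.71 and 13.68 against 13.90 and 13.20. Tmem164 read 9.62 and 9.58 against 8.62 and 8.37, with a log2 difference of -1.11 (SE 0.15; limma adjusted p = 0.0727, n = 2 per group). Irs4 and Ammecr1 had log2 differences of 0.23 and 0.12, and Gucy2f did not rise well above background anywhere. Thus of the 5 tested neighbours 0 passed the adjusted test, with limma adjusted p from 0.0727 to 0.858. Among all genes 1.68% were called lower and 0.176% higher, so 0 of 5 does not show that the surroundings of Kcne1l were unchanged. Tmem164 was at least 2-fold lower in both mothers' pairs, as was Kcne1l, which went to background.

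**Figure D4:**
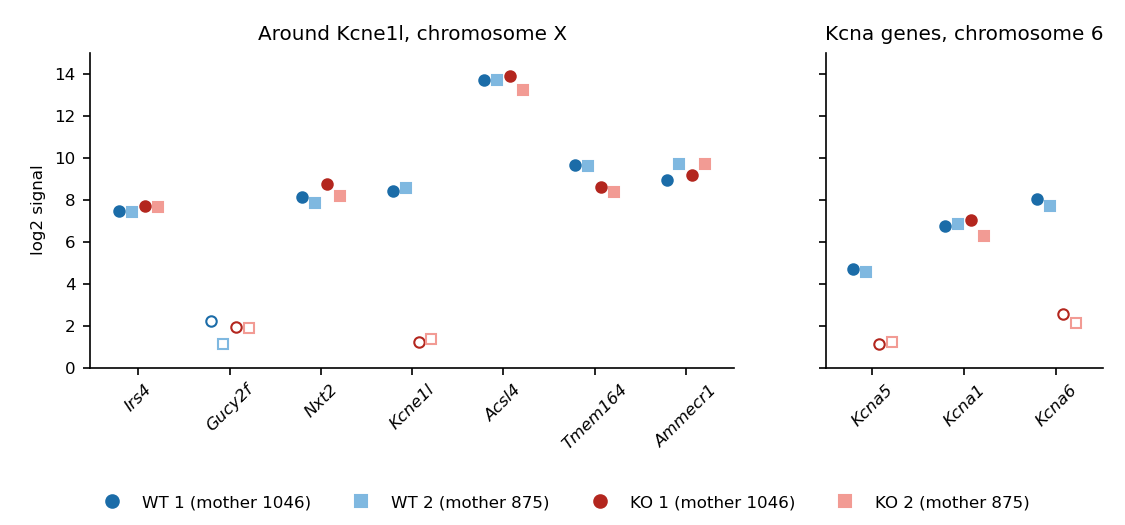
Log2 signal on each array for Kcne1l and its 3 nearest genes with a probe on each side, in chromosome order (left), and for Kcna5, Kcna1 and Kcna6 in chromosome order (right); blue marks are WT lines, red marks KO lines, and open marks are not well above background. Kcne1l, Kcna5 and Kcna6 drop to open marks in both KO lines, and Kcna1 between the Kcna genes stays at 6.27 to 7.04 on all 4 arrays.

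Among calcium- or sodium-activated channels, 1 of 5 tested genes fell (20%, beside 1.68% of all genes) and 0 rose. At an unadjusted p under 0.05, 3 of the 5 were lower, the called gene included, and 0 higher, beside 12.7% and 10.4% of all genes. Kcnt1, the sodium-activated Slack channel, fell from 5.58 and 5.49 in the WT to 3.56 and 3.67 in the KO lines, 3.78-fold (log2 difference -1.92, SE 0.13; limma adjusted p = 0.0269, n = 2 per group). It was well above background on all 4 arrays, so its value is not a bound. Its KO values lay close to the lowest signals called above background on those arrays, 3.24 and 3.31. Its second kept probe read 4.00 and 3.69 against 2.32 and 1.18, with neither KO array well above background. With the mean of both probes the call was lost (limma adjusted p = 0.0550). Under normexp it was lost too, with a log2 difference of -0.62 (limma adjusted p = 0.153) and, with quantiles, -0.42 (limma adjusted p = 0.1096). Kcnt2, its paralogue, read 5.84 and 6.31 in the WT and 5.45 and 2.16 in the KO lines, so KO replicate 1 stayed near the WT lines and KO replicate 2 was not well above background. It did not pass (limma adjusted p = 0.344, n = 2 per group).

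Kcnn4, the intermediate-conductance channel of blood cells and secretory epithelia, read 7.63 and 7.59 in the WT and 4.85 and 5.74 in the KO lines. The WT lines were close together and both KO lines lay far below them, yet the 4.96-fold difference did not pass (log2 difference -2.31, SE 0.35, n = 2 per group, limma adjusted p = 0.0835). Kcnn2, a small-conductance channel, read 9.48 and 9.52 against 8.67 and 8.58, a log2 difference of -0.87 (SE 0.12; limma adjusted p = 0.0769, n = 2 per group). Its second probe, dimmer, read 5.51 and 5.26 against 5.29 and 4.55, and there the groups overlapped.

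No inward rectifier passed the test among the 7 tested. At an unadjusted p under 0.05, 0 were lower and 2 higher, beside 12.7% and 10.4% of all genes. Kcnj12, a strong inward rectifier of muscle, read 5.39 and 5.36 in the WT and 6.55 and 6.77 in the KO lines, a 2.44-fold difference just short of the threshold (log2 difference 1.29, SE 0.14, n = 2 per group, limma adjusted p = 0.0554). Kcnj4, a related rectifier, read 8.99 and 9.04 against 9.47 and 9.91 (log2 difference 0.68, SE 0.20, n = 2 per group, limma adjusted p = 0.184). For both genes the KO lines were the higher ones and the groups did not overlap. Kcnj3, a G protein-gated channel gene singled out after its values were seen, was well above background in WT replicate 1 alone, at 6.61, and at 0.98 to 1.14 on the other 3 arrays, so it was not tested.

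No two-pore domain gene passed either among the 8 tested. At an unadjusted p under 0.05, 1 was lower and 2 higher, beside 12.7% and 10.4% of all genes. These channels carry background potassium currents that hold the resting potential. Kcnk1 read 11.99 and 12.68 in the WT and 9.95 and 11.04 in the KO lines, a 3.60-fold difference with no overlap (log2 difference -1.85, SE 0.49, n = 2 per group, limma adjusted p = 0.162). Kcnk2, a mechanosensitive channel, read 3.78 and 2.99 against 5.43 and 4.55 (log2 difference 1.61, SE 0.45; limma adjusted p = 0.173, n = 2 per group), where WT replicate 2 was not well above background. Kcnk5, an acid-sensitive channel, read 9.10 and 8.95 against 9.61 and 10.11 (log2 difference 0.83, SE 0.22, n = 2 per group, limma adjusted p = 0.163). Within this class the KO lines were thus lower than both WT lines for Kcnk1 and higher for Kcnk2 and Kcnk5, each without passing.

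Kcnk6 read 11.53 and 11.67 in the WT and 11.31 and 11.47 in the KO lines, and Kcnk13 read 9.18 and 8.91 against 9.01 and 9.17, a log2 difference of 0.04 whose groups overlap and whose sign turned to -0.092 without WT replicate 2. Kcnk3, an acid-sensitive channel gene named after its values were seen, stood out in KO replicate 1 at 7.52, against 4.14, 4.87 and 4.32 in WT 1, WT 2 and KO 2. Its other kept probe read 3.74, 3.58, 3.88 and 4.50 in WT 1, WT 2, KO 1 and KO 2 and did not show the high value, so the probes disagree.

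Genes that work beside potassium channels were read from lists of partners, pumps and other ion channels. Of 11 tested channel partners 0 passed (limma); Tmem38b, an intracellular cation channel, had a log2 difference of 1.14, Amigo1, a membrane partner of voltage-gated channels, 0.54, and Cntnap2, which clusters channels at axons, -1.49. None of 11 sodium-potassium pump genes passed, with Fxyd3, not well above background in the KO lines, at least 1.36-fold lower there, Atp1b2 at 0.66 and Fxyd6 at 0.54. None of 7 cation-chloride cotransporter genes passed, with Slc12a7 at 0.67. The medians of these 3 lists, 0.04, 0.19 and 0.04, lay near the 0.08 of all genes.

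Of 9 voltage-gated sodium channel genes 0 passed (limma), with Scn3a at least 1.32-fold higher in the KO lines, as neither WT array was well above background, and Scn1a at a log2 difference of 1.22, with 1 of 2 WT arrays above background. Of 12 calcium channel genes 1 fell (8.33%, beside 1.68% of all genes) and 11 did not pass. It was Cacna1s, the skeletal muscle L-type pore gene, lower by 6.08-fold (log2 difference -2.60, n = 2 per group, limma adjusted p = 0.0264). Cacnb2, a beta subunit, was at least 3.12-fold lower without passing (limma adjusted p = 0.118), with neither KO array well above background. Of 6 pacemaker and cyclic nucleotide-gated channel genes 0 passed, with Hcn2 at 0.38. Cnga3 read 4.98 and 2.87 in the WT, the second not well above background, and 7.66 and 7.64 in the KO lines (limma adjusted p = 0.122, n = 2 per group). Over the sodium, calcium and cyclic nucleotide lists the medians were 0.09, -0.02 and 0.29.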

How the data were processed

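The authors scanned 4 one-colour arrays and read the spots with Agilent's extraction software, version 10.7.3.1 per the file headers; the deposited processed intensity of a spot is adjusted within its array and not scaled between arrays. All 4 arrays lay on 1 slide in 1 scan. The deposited series table holds log2 values with equal quantiles on all arrays (correlation with the processed signal 0.999901 to 0.999988), a scale read from the values. Probes were named by accession through the RefSeq table of GRCm38.p6: 26690 had 1 symbol, 0 several and 14484 none.

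Signals were put on the log2 scale, spots with outlier flags and control spots left out, and each array scaled to its 75th percentile. No probe was saturated. The brightest kept probe stood for its gene. Genotypes were compared over 21639 genes with limma 3.58.1 in R 4.3.3 and Benjamini-Hochberg adjustment at 0.05. The procedure was run on simulated data drawn from limma's own fitted spread. That simulation had no background floor, brightness filter or shared mothers, so it does not test their effect. Where a genotype was not well above background, "at least" folds use, per array, the higher of the probe's value and the lowest signal well above background. Some probes above that lowest signal were still not called well above background. Kcnu1 read 4.13 in WT replicate 1, for example, where the lowest such signal was 3.59. The folds are therefore not strict lower bounds, least of all the small ones. The labels tie equal replicate numbers to a shared mother, and the lines' deviations correlated at 0.19 across genes. Named genes are all Kcne genes, those called or 2-fold in both pairs, the 10 with the highest WT value, the largest difference in each subfamily and up to 3 per related list; exceptions are marked, and a few genes under this rule are not reported here. Members and lists were chosen with earlier results of these data known.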

Additional observations from a re-analysis of the deposited data

Results flagged for a closer look

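Kcnab2, a cytoplasmic beta subunit gene of voltage-gated channels, differed in opposite directions in the lines of the 2 mothers. The KO line was lower than the WT line of mother 1046 by a log2 difference of -1.78 and higher than that of mother 875 by 1.13. Its values were 5.66 and 3.68 in the WT and 3.87 and 4.82 in the KO lines. With 1 line per mother and genotype the difference between the mothers was not tested. It was the only 1 of 47 tested Kcn genes that differed at least 2-fold in opposite directions, and 82 of 21639 genes did so. It was chosen after its values were seen.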

How the results depend on the processing

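Of 423 values of 27 named Kcn genes under 16 alternatives, 6 turned their sign: Kcns3 under median centring (0.034), without WT replicate 2 (0.02) and without KO replicate 2 (0.16), Kcnk13 without WT replicate 2 (-0.092) and KO replicate 2 (-0.03), and Kcnab1 without WT replicate 2 (-0.19). With 1 line left out, Kcns3 ranged from -0.46 to 0.16, Kcnk13 from -0.092 to 0.18 and Kcnab1 from -0.19 to 1.05. Another 25 lost and 6 gained a call. With the mother as a replicate block, limma called 0 genes lower and 0 higher over all genes and 0 Kcn genes lower, with a smallest adjusted p of 0.0844. Leaving out 1 line gave 0 to 784 lower and 0 to 72 higher calls over all genes, and 0 to 10 lower and 0 to 1 higher Kcn calls, the highest without KO replicate 1, where 1 KO line is assumed to vary like the WT lines; the Kcn median then ranged from -0.29 to -0.17. Kcn genes called lower, Kcne1l counted, numbered 3 under normexp, scaled either way, and 1 with genes above background on all 4 arrays, where fewer genes enter. Kcn genes 2-fold lower in both pairs numbered 6 and 4 under normexp (75th percentile, quantiles) and 5 on all 4 arrays, and those higher 0, 0 and 1. Over all genes the higher calls were 58 under median centring, 69 under normexp with the 75th percentile, 9 with no filter on dim probes and 80 with an intensity trend and robust prior, and genes above background on all 4 arrays gave 62 lower and 1 higher. The Kcn median was -0.022 under quantile normalization, 0.034 under median centring, 0.0034 under normexp with quantiles, -0.030 in the deposited values, -0.20 with no filter, -0.063 with genes above background on all 4 arrays and -0.17 with every probe separate; the median of all genes was 0.26 under median centring. Median centring moved the log2 differences of all genes by the same amount. The cause of the other changes was not tested. With 2 lines per genotype and 35 of 82 genes too dim to test, small differences were not detectable.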
